A study of Homo sapiens with 6 samples.

Results

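The transforming growth factor beta (TGF-beta) pathway was examined in OVCAR8 cells through 10 genes: the ligand genes TGFB1, TGFB2 and INHBA, the receptor genes TGFBR1 and TGFBR2, the latency and activation genes LTBP1 and THBS1, the signal transducer SMAD3 and the feedback inhibitors SMAD7 and SKIL. They were chosen by name, with earlier results of these data known, and all 10 were present among the 38637 genes of the table. Shares of these genes set beside those of all genes are therefore descriptions. OVCAR8 is an established human ovarian cancer cell line, labelled wild type in every sample. Cells received either DMSO, the solvent, or 2 nM pladienolide B, an inhibitor of the splicing factor SF3B1, and polyA RNA was sequenced after 72 h from 3 samples per group. The comparison asks how these transcripts differed between solvent and splicing inhibitor in a single line at 1 dose and 1 time. Nothing in the labels says that the 3 samples were separate cultures, so the p-values measure the spread between samples, which may be technical.

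TGF-beta ligands are secreted in a latent complex, in which a propeptide and a latent TGF-beta binding protein hold the growth factor inactive in the matrix. Once released by integrins or thrombospondin, the ligand binds the type II receptor, which phosphorylates the type I receptor, and this in turn phosphorylates SMAD2 and SMAD3. These join SMAD4 and regulate target genes, some of which, such as SMAD7 and SKIL, dampen the signal. In epithelial cancers the pathway is known both for slowing growth and for promoting invasion and matrix production.

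The start regions of 3 genes are shown because TGFB2 had the largest fall of the 10 genes and TGFBR2 and SMAD3 were the genes that rose. They are the 250 bases before the RefSeq start nearest to the 5′ end given in the table, on the plus strand of GRCh38.p14, at chr1:218345086-218345335, chr3:30606106-30606355 and chr15:67065352-67065601. Capitals mark the words CAGACA, a Smad-binding element, and GGCGCC, a GC-rich Smad-binding motif.
TGFB2: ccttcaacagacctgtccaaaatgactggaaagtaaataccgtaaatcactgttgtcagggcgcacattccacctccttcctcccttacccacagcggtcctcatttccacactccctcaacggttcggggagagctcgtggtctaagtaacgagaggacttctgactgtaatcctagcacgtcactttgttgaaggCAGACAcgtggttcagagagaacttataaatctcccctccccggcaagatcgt
TGFBR2: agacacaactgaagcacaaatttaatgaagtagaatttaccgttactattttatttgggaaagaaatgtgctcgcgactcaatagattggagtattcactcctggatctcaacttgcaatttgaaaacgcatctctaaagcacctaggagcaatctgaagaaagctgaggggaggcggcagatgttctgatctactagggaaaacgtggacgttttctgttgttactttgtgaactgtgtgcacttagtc
SMAD3: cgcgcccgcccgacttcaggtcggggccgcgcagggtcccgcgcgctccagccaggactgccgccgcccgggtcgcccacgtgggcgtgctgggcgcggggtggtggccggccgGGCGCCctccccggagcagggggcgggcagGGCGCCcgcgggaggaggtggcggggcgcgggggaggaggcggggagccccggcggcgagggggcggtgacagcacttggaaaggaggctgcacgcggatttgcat
The TGFB2 region held 1 CAGACA, 53 bases before the start, and the SMAD3 region held 2 GGCGCC, 136 and 106 bases before it. The TGFBR2 region held neither. The regions differed in base composition, with 50.4% G and C in TGFB2, 40.8% in TGFBR2 and 80.8% in SMAD3. Both strands were searched over windows from 250 bases before to 50 bases after the start, and no word found overlapped another in these regions. Of 8 genes with a RefSeq start within 150 bases of the table's 5′ end, 2 held CAGACA (TGFB2 and TGFBR1) and 2 held GGCGCC (SMAD3 and SKIL). Among all 35116 RefSeq promoters, 16.9% held CAGACA and 19.2% held GGCGCC. The palindromic Smad element GTCTAGAC, present in 0.202% of promoters, and the AP-1 word TGANTCA, present in 7.71%, were in none of the 8. The RefSeq starts of INHBA and LTBP1 lay 7442 and 44824 bases from the 5′ end in the table and were not counted.

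The samples held 22621338 to 26130882 reads on genes, as recovered from the deposited values, and 22005 to 22987 genes with a read. Values are given as adjusted reads, which are reads brought to a common library size by the authors. Among DMSO samples, replicate 2 stood apart. Its differences from the other DMSO replicates were 7.69 and 7.62 times what counting alone gives (chi-square per degree of freedom), against 1.95 between DMSO replicates 1 and 3 and 3.32 to 4.94 between pladienolide B replicates. Replicates correlated across genes at 0.992 or more on the log2 scale. The epithelial keratin KRT8 was at 40092 to 53035 adjusted reads and the Müllerian factor PAX8 at 4011 to 4581. The leukocyte gene PTPRC was at 2 or fewer, CD3E was at 0, and the endothelial gene CDH5 was at 4 or fewer. Other leukocyte and endothelial genes had some reads, with CD14 at 5 to 20, PECAM1 at 24 to 42 and VWF at 19 to 45. Of 5 fibroblast markers, DCN was at 2 or fewer in every sample, whereas COL1A1 was at 5602 to 6902 and PDGFRB at 181 to 267, and the list summed to 6949 to 7124 for DMSO and 5894 to 6538 for pladienolide B. Of the other epithelial markers, KRT19 was at 8 to 25 and CDH1 at 22 to 42, and the mesenchymal gene VIM was at 60442 to 69709. By limma, KRT8, KRT18 and CDH1 were called higher in pladienolide B, and VIM, CDH2, MSLN, COL1A1 and PDGFRB lower. Of the epithelial and fibroblast markers tested, EPCAM, KRT19 and COL1A2 were not called. Their log2 fold changes were -0.10, -0.10 and 0.69 (limma adjusted p = 0.31, 0.85 and 0.17). Of the leukocyte genes, CD68 was called higher (log2 fold change 0.41, limma adjusted p = 2.4e-05). ITGAM, at 11 to 32 adjusted reads, was called lower (-0.99, limma adjusted p = 0.021). The part of these marker shifts in the other results was not tested. WT1 and MUC16, other markers of ovarian carcinoma, were low, at 10 to 34 adjusted reads. The summed level of 5 leukocyte genes ran from 1123 to 1287 for DMSO and from 1508 to 1616 for pladienolide B, of which CD68, a lysosomal gene also expressed outside leukocytes, made up 1091 to 1246 and 1477 to 1590.

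In pladienolide B 7 of the 10 genes differed from DMSO, all by less than 2-fold. TGFBR2 and SMAD3 rose, TGFB2, TGFBR1, LTBP1, SKIL and THBS1 fell, and no difference was detected for TGFB1, INHBA and SMAD7. Tests were made with limma on log2(adjusted reads + 1) across all 16178 genes that passed a filter on low values, with Benjamini-Hochberg adjustment and a call at an adjusted p below 0.05. All 10 genes passed the filter. Of these, 20% were called higher, where 22.4% of all genes tested were, and 50% were called lower, where 25.2% of all genes tested were. For 6 of the 10, or 60%, the 2 groups did not overlap, beside 55.3% of all genes tested. The median log2 fold change was -0.15 over the 10 genes and 0 over all genes. The count of 5 lower genes was 2 without pladienolide B replicate 2 and 3 without pladienolide B replicate 3. It was also 3 with DESeq2 on the recovered reads, where LTBP1 and THBS1 were not called. With DESeq2, 6985 of the 16178 genes were called, 3421 of them higher. The excess of lower genes over the share of all genes therefore depends on the method and on single samples. In cultures sequenced in bulk, fewer cells of one kind and less RNA per cell cannot be told apart.

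**Figure D1:**
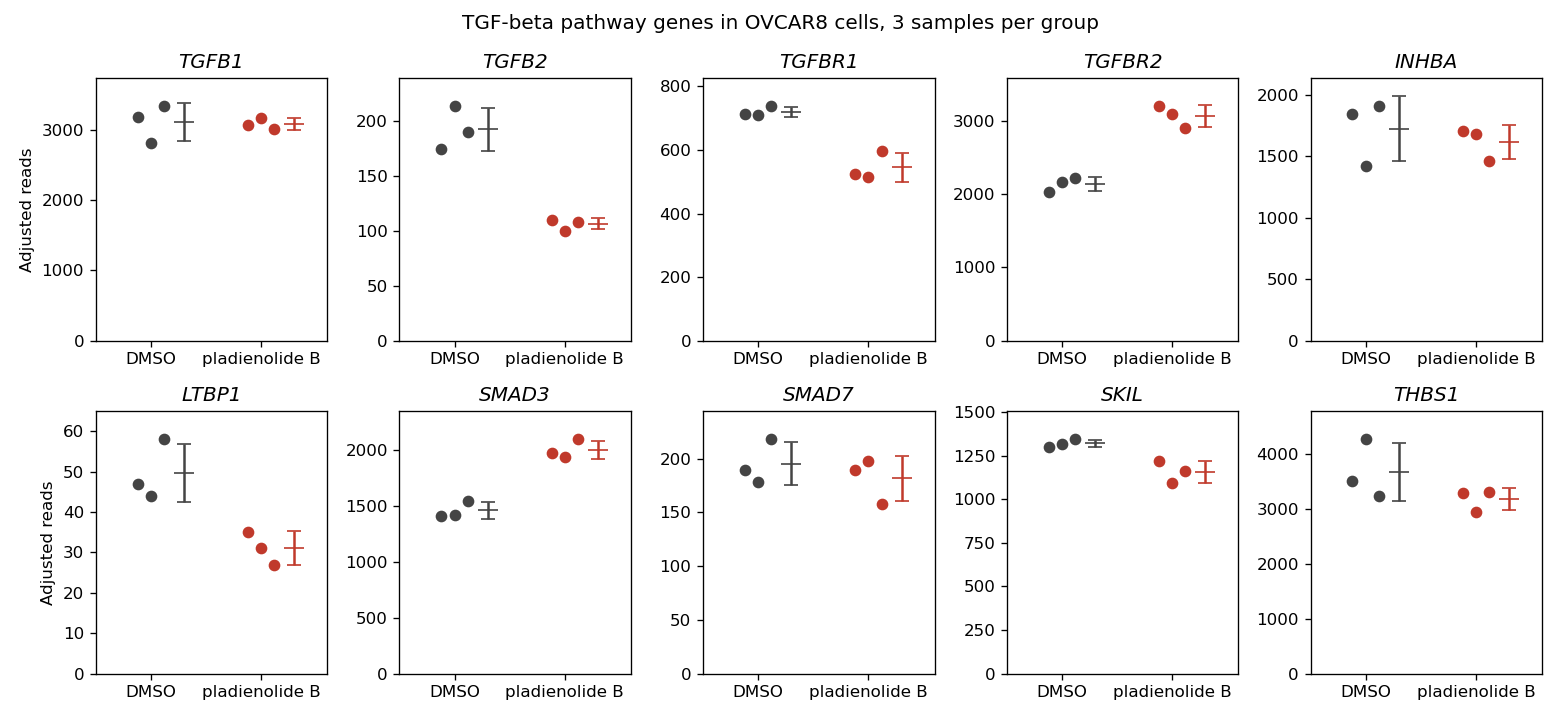
Adjusted reads of each gene in each sample, with 3 DMSO samples (grey) and 3 pladienolide B samples (red) per panel; the bar beside each group is the mean and its SD, and every vertical axis starts at 0. The pladienolide B samples lie below all DMSO samples for TGFB2, TGFBR1, LTBP1 and SKIL, above all of them for TGFBR2 and SMAD3, and the groups overlap for TGFB1, INHBA, SMAD7 and THBS1.

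Of the ligand genes, TGFB2 fell and TGFB1 did not differ detectably. TGFB1 (chr19:41330323-41353922, minus strand, 7 exons) encodes the main TGF-beta isoform of most tissues. Its adjusted reads were 3185, 2819 and 3333 in DMSO and 3069, 3174 and 3007 in pladienolide B. The groups overlapped, with the lowest and the highest value both in DMSO. The means were 3112 ± 265 and 3084 ± 84.3 (SD, n = 3 per group), with a log2 fold change of -0.01 (SE 0.06, limma adjusted p = 0.90). The 95% interval of the change ran from 91.6% to 108% of the DMSO level, and the sign of this small difference turned with the scaling used.

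TGFB2 (chr1:218345336-218444619, plus strand, 7 exons) encodes a second isoform, with the same receptors but a need for the co-receptor betaglycan. It had 174, 213 and 190 adjusted reads in DMSO and 110, 100 and 108 in pladienolide B. Every treated sample was well below every DMSO sample. The level fell from 192.1 ± 19.5 to 106.4 ± 5.21 (SD, n = 3 per group), or to 55.4% of DMSO, with a log2 fold change of -0.84 (SE 0.13, limma adjusted p = 3.9e-05). The 95% interval was 46.3% to 67.1% of DMSO, and the change ranked 557 from the lowest of 16178 genes. The transcript TGFB2-OT1, which overlaps TGFB2 on the same strand, averaged 32.2 adjusted reads in DMSO and 21.8 in pladienolide B, and the antisense gene TGFB2-AS1 averaged 0.652 and 0. Whether reads were assigned by strand is not given in the sources used here.

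INHBA (chr7:41685101-41710532, minus strand, 3 exons) encodes the activin A subunit, a ligand that uses activin receptors and the same SMAD2 and SMAD3. Adjusted reads were 1845, 1424 and 1906 in DMSO and 1708, 1682 and 1461 in pladienolide B. The groups overlapped, and DMSO replicate 2 was the lowest sample of all. The means were 1725 ± 263 and 1617 ± 136 (SD, n = 3 per group), with a log2 fold change of -0.08 (SE 0.09, limma adjusted p = 0.45) and a 95% interval of 83.0% to 107% of DMSO. Without DMSO replicate 2 the log2 fold change was -0.22 and the adjusted p was 0.0044 by limma. The antisense gene INHBA-AS1 averaged 20.9 adjusted reads in DMSO and 11.7 in pladienolide B.

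Both genes for the storage and release of the ligand were lower, on weaker evidence. LTBP1 (chr2:32902129-33399509, plus strand, 34 exons) encodes the protein that anchors latent TGF-beta in the matrix. Its adjusted reads were few, with 47, 44 and 58 in DMSO and 35, 31 and 27 in pladienolide B. All treated samples were below all DMSO samples. LTBP1 fell to 62.6% of DMSO, from 49.74 ± 7.15 to 31.13 ± 4.15 (SD, n = 3 per group), with a log2 fold change of -0.66 (SE 0.23, limma adjusted p = 0.024) and a 95% interval of 45.5% to 88.2%. The adjusted p was 0.059 with DESeq2 on the recovered reads and 0.065 with no filter on low values. It was 0.11 with limma without DMSO replicate 3, 0.051 without pladienolide B replicate 2 and 0.079 without pladienolide B replicate 3.

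THBS1 (chr15:39581079-39599466, plus strand, 22 exons) encodes thrombospondin 1, a matrix protein that can release active TGF-beta and is itself a TGF-beta target. It had 3524, 4273 and 3246 adjusted reads in DMSO and 3296, 2949 and 3316 in pladienolide B. Here the groups overlapped, and DMSO replicate 2 was the highest sample. The mean fell from 3681 ± 531 to 3187 ± 206 (SD, n = 3 per group), or to 86.6% of DMSO, with a log2 fold change of -0.20 (SE 0.07, limma adjusted p = 0.036). The log2 fold change was -0.09 without DMSO replicate 2, with an adjusted p of 0.16 by limma, and the adjusted p was 0.19 without pladienolide B replicate 2 and 0.051 without pladienolide B replicate 3. With DESeq2, as with limma without its variance trend, the adjusted p was 0.22. FSIP1 overlaps THBS1 on the opposite strand and averaged 84.4 adjusted reads in DMSO and 63.9 in pladienolide B.

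The 2 TGF-beta receptor genes moved in opposite directions. TGFBR2 (chr3:30606472-30694142, plus strand, 7 exons) encodes the type II receptor, which binds the ligand. Adjusted reads were 2029, 2163 and 2228 in DMSO and 3202, 3098 and 2907 in pladienolide B. Every treated sample was above every DMSO sample. TGFBR2 rose to 143% of DMSO, from 2140 ± 101 to 3069 ± 150 (SD, n = 3 per group), with a log2 fold change of 0.52 (SE 0.05, limma adjusted p = 3.2e-07). The 95% interval was 133% to 154% of DMSO, and the change ranked 1210 from the highest of 16178 genes.

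TGFBR1 (chr9:99104038-99154192, plus strand, 9 exons) encodes the type I receptor, the kinase that phosphorylates SMAD2 and SMAD3. It had 714, 709 and 737 adjusted reads in DMSO and 523, 515 and 597 in pladienolide B. The DMSO samples lay close together, and all treated samples were below them. TGFBR1 fell to 75.7% of DMSO, from 719.9 ± 15.4 to 545.2 ± 45.3 (SD, n = 3 per group), with a log2 fold change of -0.40 (SE 0.07, limma adjusted p = 0.00019) and a 95% interval of 68.1% to 84.0%.

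SMAD3 rose, whereas of its feedback inhibitors SKIL fell slightly and SMAD7 did not differ detectably. SMAD3 (chr15:67065602-67195195, plus strand, 9 exons) carries the receptor signal to the nucleus. Its adjusted reads were 1411, 1418 and 1544 in DMSO and 1971, 1938 and 2090 in pladienolide B. The groups were far apart compared with their spread. SMAD3 rose to 137% of DMSO, from 1458 ± 74.8 to 2000 ± 80.3 (SD, n = 3 per group), with a log2 fold change of 0.46 (SE 0.05, limma adjusted p = 2.3e-06) and a 95% interval of 127% to 148%.

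SMAD7 (chr18:48919853-48950965, minus strand, 4 exons) encodes the inhibitory Smad that recruits ubiquitin ligases to the type I receptor. It had 190, 178 and 218 adjusted reads in DMSO and 190, 198 and 158 in pladienolide B. The groups overlapped between 178 and 198. The means were 195.4 ± 20.2 and 182.0 ± 21.0 (SD, n = 3 per group), with a log2 fold change of -0.10 (SE 0.12, limma adjusted p = 0.52). The 95% interval, 77.8% to 111% of DMSO, leaves room for a fall as large as that of SKIL.

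SKIL (chr3:170357678-170396849, plus strand, 7 exons) encodes SnoN, a nuclear co-repressor that binds Smads. Adjusted reads were 1300, 1317 and 1344 in DMSO and 1219, 1095 and 1162 in pladienolide B. SKIL was lower in every treated sample, but the nearest samples differed by less than the range of the treated group. SKIL fell to 87.7% of DMSO, from 1321 ± 22.3 to 1159 ± 62.3 (SD, n = 3 per group), with a log2 fold change of -0.19 (SE 0.06, limma adjusted p = 0.0091). Without pladienolide B replicate 2 the adjusted p was 0.058 by limma.

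**Figure D2:**
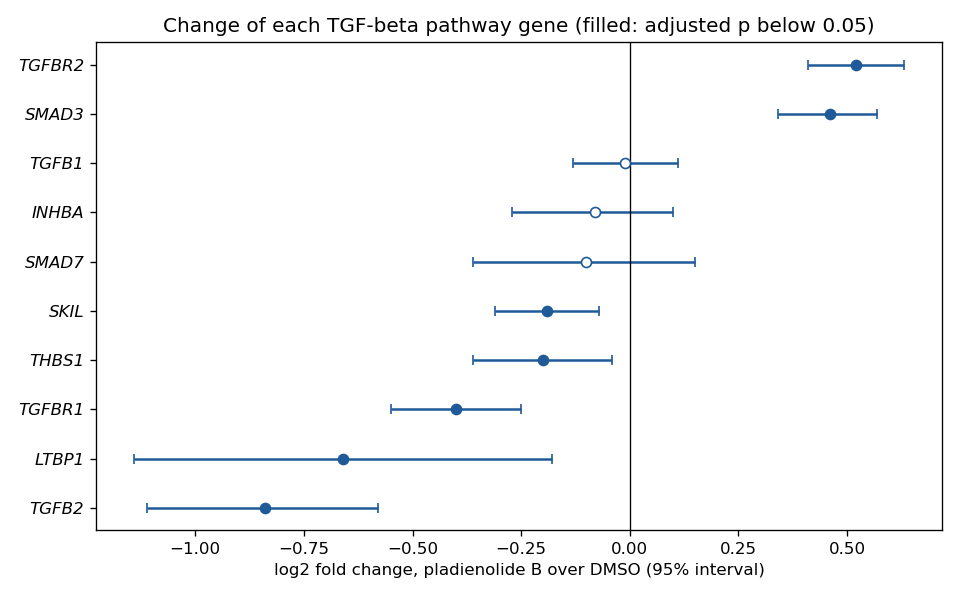
The log2 fold change of each gene (horizontal axis, pladienolide B over DMSO, n = 3 per group) with its 95% interval from limma; filled points have an adjusted p below 0.05. TGFBR2 at 0.52 and SMAD3 at 0.46 lie to the right of 0, TGFB2 at -0.84 lies furthest left, and LTBP1, which has the fewest reads, has the widest interval.

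Ratios of 2 genes within a sample do not depend on the scaling between samples, apart from the pseudocount of 1. The log2 ratio of TGFBR1 to TGFBR2 was -1.51, -1.61 and -1.59 in DMSO and -2.61, -2.59 and -2.28 in pladienolide B. Every treated sample was lower, by 0.92 on average. The log2 ratio of TGFB2 to TGFB1 was -4.19, -3.72 and -4.13 in DMSO and -4.78, -4.97 and -4.78 in pladienolide B, a difference of -0.83. For SMAD7 to SMAD3 it was -2.89, -2.98 and -2.82 in DMSO and -3.37, -3.28 and -3.71 in pladienolide B, a difference of -0.56. In these 3 pairs the groups did not overlap, and the two-sided exact permutation test gave p = 0.1, the smallest p that 3 samples against 3 allow (0.133 after Benjamini-Hochberg adjustment over 4 pairs). The ratio of SKIL to SMAD7, both feedback inhibitors, was 2.75 ± 0.13 in DMSO and 2.67 ± 0.20 in pladienolide B (log2, SD, n = 3 per group), with overlapping groups (exact permutation p = 0.6, adjusted p = 0.6).

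**Figure D3:**
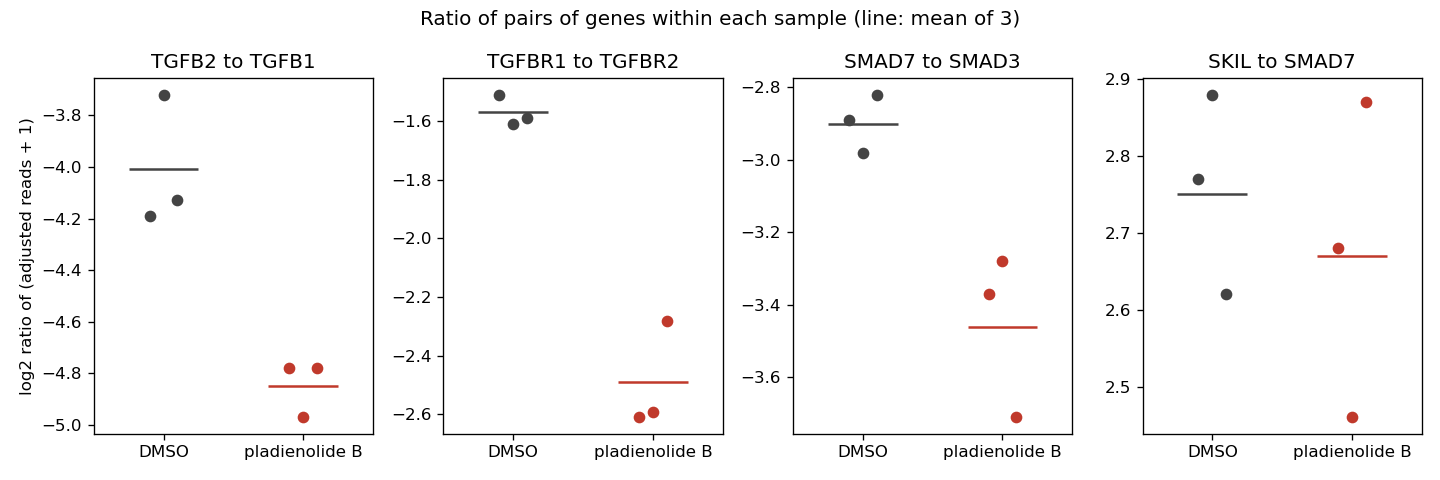
The log2 ratio of adjusted reads (+ 1) of 2 genes within each sample, for 4 pairs, with DMSO in grey, pladienolide B in red and a line at the mean of 3 samples; the vertical axes differ between panels. The groups are apart for TGFB2 to TGFB1, TGFBR1 to TGFBR2 and SMAD7 to SMAD3 and overlap for SKIL to SMAD7.

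Levels of different genes were compared per length, as adjusted reads per kilobase of the canonical GENCODE transcript per 1000000 adjusted reads. The same length was used for both groups, and reads per gene do not separate spliced, unspliced or alternative transcripts. In DMSO, TGFB1 was the highest at 45.2 ± 4.44 (SD, n = 3), followed by TGFBR2 at 19.1 ± 0.902, THBS1 at 19.0 ± 2.47, INHBA at 11.5 ± 1.90 and SMAD3 at 9.10 ± 0.541. Lower in the order were SKIL at 7.44 ± 0.175, TGFBR1 at 4.47 ± 0.145, SMAD7 at 2.36 ± 0.269, TGFB2 at 1.32 ± 0.117 and LTBP1 at 0.309 ± 0.0474. TGFBR2 and THBS1 overlapped, as did INHBA and SMAD3, and all other neighbours in this order were apart. Of the 3 ligand genes among the 10, TGFB2 was the lowest on this scale, at 0.0292 of the level of TGFB1 in DMSO and 0.0163 in pladienolide B. The type I receptor was at 0.234 of the level of the type II receptor in DMSO and 0.124 in pladienolide B. After treatment no neighbours overlapped, and SMAD3, at 12.8 ± 0.553, stood above INHBA, at 11.1 ± 0.886. TGFBR2, at 28.0 ± 1.24, stood above THBS1, at 16.9 ± 1.08.

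The wider pathway was described with hand-written lists holding 106 other genes, of which 90 were tested. These lists too were written with earlier results of these data known. Of these 90 genes, 22 (24.4%) were higher and 28 (31.1%) lower, beside the 22.4% and 25.2% of all genes tested, and the median log2 fold change was -0.02. Of 7 other receptor genes tested, 2 rose, 1 fell and 4 were not called. TGFBR3 encodes betaglycan, the co-receptor that presents TGF-beta 2. It had 1247, 1198 and 1199 adjusted reads in DMSO and 783, 773 and 760 in pladienolide B, a fall to 63.5% (log2 fold change -0.65, SE 0.06, limma adjusted p = 6.3e-08). BAMBI, a decoy receptor, rose with a log2 fold change of 0.50 (limma adjusted p = 0.0021), and ACVR1B, the type I activin receptor, rose by 0.19 (limma adjusted p = 0.013), a call lost without pladienolide B replicate 3 (limma adjusted p = 0.062). The median of the receptor list was 0.15.

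Among 11 other latency and activation genes tested, 7 fell, 1 rose and 3 were not called, where 25.2% of all genes tested were lower and 22.4% higher, with a median of -0.38 beside 0 over all genes. ITGAV, the alpha V integrin subunit that pulls latent TGF-beta open, fell from 6159 ± 68.9 to 3506 ± 330 adjusted reads (means ± SD of 3 samples each, log2 fold change -0.82, limma adjusted p = 3.5e-09). Its partner ITGB8 fell from 459.8 ± 49.0 to 253.8 ± 40.7 (log2 fold change -0.86, limma adjusted p = 7.6e-06). NRROS, which tethers latent TGF-beta on certain cells, rose from 31.5 to 70.5 adjusted reads (log2 fold change 1.13, limma adjusted p = 0.00022). The other LTBP genes were named after their values were seen. By limma, LTBP2 (log2 fold change -0.68, adjusted p = 8.8e-06) and LTBP4 (-0.72, adjusted p = 2.3e-08) fell, and LTBP3 (0.16, adjusted p = 0.056) was not called. LTBP4 averaged 3118 adjusted reads in DMSO, where LTBP1 averaged 49.74. Values of these LTBP genes under the alternatives are not given. Of the other thrombospondins, THBS2 (log2 fold change -0.66, adjusted p = 0.0035) and THBS3 (-0.78, adjusted p = 2.3e-07) fell by limma. THBS4, named after its values were seen, was not called.

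Of 4 other ligand genes tested, 1 was called lower and 3 were not called, beside 22.4% higher and 25.2% lower of all genes tested. INHBE, an activin subunit gene, had 38, 12 and 38 adjusted reads in DMSO and 3, 15 and 10 in pladienolide B, and the groups overlapped. Its log2 fold change was -1.59 (limma adjusted p = 0.015). The limma adjusted p was between 0.071 and 0.082 when DMSO replicate 1, DMSO replicate 3 or pladienolide B replicate 1 was left out. Without the last of these the log2 fold change was -1.04. Without the variance trend of limma the adjusted p of INHBE was 0.1. GDF15, a stress-induced member of the superfamily chosen after its values were seen, was filtered out as low, with 2, 1 and 0 adjusted reads in DMSO and 8, 10 and 19 in pladienolide B. Of the antagonists, 2 of 5 were tested, of which 1 rose and 1 fell. The activin antagonist FST rose from 79.98 to 147.5 adjusted reads (log2 fold change 0.88, limma adjusted p = 6.3e-05), and the related FSTL3 fell (-0.30, adjusted p = 1.9e-05).

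Of 7 other Smads and partners tested, 1 rose, 1 fell and 5 were not called, beside 22.4% higher and 25.2% lower of all genes tested. SMAD2, which was named after its values were seen, had a log2 fold change of -0.01 (limma adjusted p = 0.89). SMAD4 rose by 0.13 (adjusted p = 0.028) and FKBP1A, which holds the type I receptor inactive, fell by 0.15 (adjusted p = 0.0079) on the log2 scale by limma. For SMAD4 the adjusted p was 0.065 without DMSO replicate 1, 0.057 without DMSO replicate 2, 0.12 without pladienolide B replicate 1 and 0.061 without pladienolide B replicate 2 (limma). Without the variance trend of limma the adjusted p was 0.082 for SMAD4 and 0.074 for FKBP1A. A list of 15 other genes acting on receptor and Smad turnover or repression, written as inhibitors, had 6 that rose, 2 that fell and 7 not called (shares over all genes tested 22.4% higher and 25.2% lower). The list also holds USP4 and, named after their values were seen, USP15 and RNF111, which are known to promote signalling, and of these USP4 and RNF111 are among the 6 that rose. NEDD4L, a ubiquitin ligase that acts on activated SMAD2 and SMAD3, had 2017, 1854 and 1968 adjusted reads in DMSO and 4327, 4280 and 3981 in pladienolide B (log2 fold change 1.11, SE 0.05, limma adjusted p = 2.8e-11). USP4, a deubiquitinase that stabilises the type I receptor, rose by 0.33 (limma adjusted p = 4.1e-05). PMEPA1, a membrane protein that sequesters Smads, fell by 0.28 (adjusted p = 0.0019), and PPM1A, a phosphatase of SMAD2 and SMAD3, fell by 0.13 (limma adjusted p = 0.028). For PPM1A the adjusted p was 0.053 without DMSO replicate 2, 0.051 without pladienolide B replicate 2 and 0.11 without pladienolide B replicate 3 (limma). It was also 0.077 without the variance trend of limma, 0.062 with upper-quartile scaling and 0.063 with DESeq2.

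Genes known to be induced by TGF-beta did not move together. Of 29 other such genes tested, 7 rose, 14 fell and 8 were not called, where 22.4% of all genes tested were higher and 25.2% lower, with a median log2 fold change of -0.15. CDKN1A, a cell cycle inhibitor also induced by p53, rose from 899.2 ± 77.0 to 2002 ± 120 adjusted reads (means ± SD of 3 samples each, log2 fold change 1.16, limma adjusted p = 4.5e-10). CCN2, a matricellular protein, rose from 3502 ± 371 to 5675 ± 337 (log2 fold change 0.70, adjusted p = 1.1e-07). In the other direction FN1, fibronectin, fell from 117900 ± 4320 to 54570 ± 6130 (log2 fold change -1.12, limma adjusted p = 4.9e-10), and VEGFA, an angiogenic factor also induced by hypoxia, fell from 1273 ± 311 to 515.3 ± 39.0 (log2 fold change -1.27, adjusted p = 3.9e-07). SMAD7, SKIL and THBS1, which belong to the same group of targets, were described above.

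In the bone morphogenetic protein (BMP) arm, which signals through other Smads, 4 of 13 tested genes rose and 9 were not called, beside 22.4% higher and 25.2% lower of all genes tested. GREM1, a secreted BMP antagonist, had 990, 863 and 1011 adjusted reads in DMSO and 2374, 1941 and 2402 in pladienolide B (log2 fold change 1.23, SE 0.08, limma adjusted p = 1.7e-09). ID3, a BMP target, had 72, 60 and 61 in DMSO and 147, 135 and 150 in pladienolide B (log2 fold change 1.15, limma adjusted p = 7.6e-06). The median of this list was 0.10.

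**Figure D4:**
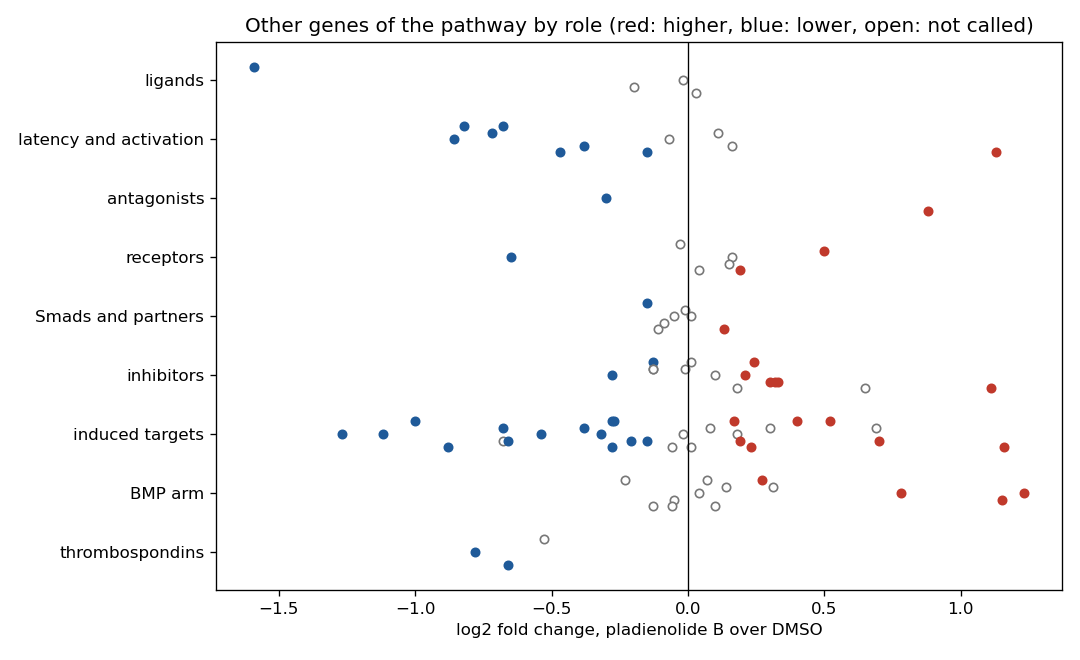
The log2 fold change (horizontal axis, pladienolide B over DMSO) of each tested gene of the wider lists, 1 point per gene, with lists in rows, red for higher, blue for lower and open for not called; PMEPA1, which is on 2 lists, appears in both, and vertical position within a row carries no value. Latency and activation genes lie mostly left of 0 (7 of 11 lower). The 4 called genes of the BMP arm, of 13 tested, lie to the right of 0. Induced targets spread over both sides (7 of 29 higher, 14 lower). Of all genes tested, 22.4% were called higher and 25.2% lower.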

How the data were processed

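RNA from 6 OVCAR8 samples, 3 with DMSO and 3 with pladienolide B, was sequenced after polyA selection. The authors trimmed the reads and aligned them to hg38 with hisat2, according to the study's methods, whereas the submitters' processing notes name hg19, HISAT2, HTSeq 0.12.4 and DESeq2. Gene positions in the table overlap those of GRCh38.p14 for 99.8% of 35926 shared symbols, including all 10 genes, so coordinates are given on GRCh38. Counting parameters and strand handling are not given in the sources used here.

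The deposited values per sample are a signal, namely reads adjusted by the authors to a common library size in the manner of edgeR's quantile-adjusted counts. Inverting the adjustment (common dispersion 0.0027) gave whole reads, within 0.02, for 100% of 135233 values of at least 1 read, and adjusting these again gave the deposited values to within 4.9e-05. The deposited log2 fold change, p-value and q-value columns, the authors' own comparison, were not used.

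The adjusted values were tested with limma 3.58.1 (variance trend, two-sided) on log2(value + 1), which understates changes of low genes, after edgeR 4.0.16 filterByExpr with defaults (10 reads in 3 samples, 15 in total). The Benjamini-Hochberg adjustment covered 16178 genes. The design foresaw this test for normalized values. Ratios were compared with exact permutation tests. Counting error is largest for LTBP1, with 27 to 58 adjusted reads. The methods were tested on simulated data that held no outlying sample such as DMSO replicate 2, so these tests do not cover that case. The 10 genes and the lists were chosen with earlier results of these data known. From the lists were named the 2 highest and 2 lowest changes per list (adjusted p below 0.05, groups apart, mean of at least 50) and any called 2-fold change, and exceptions are said to be named after their values were seen. A gene of the lists is counted but not reported by name here. Likeness to other genes over the samples is not reported, because the samples form 2 clusters by treatment. Alternatives were no filter, a mean of at least 1, a pseudocount of 0.1, no variance trend, the replicate number as a block, median-of-ratios and upper-quartile scaling, edgeR's quasi-likelihood test and DESeq2 1.42.0 on recovered reads, and leaving out each sample. Promoters are from RefSeq (all 10 genes matched) and transcript lengths and exon numbers from GENCODE v44. Protein sequences were not used here.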

Additional observations from a re-analysis of the deposited data

How the results depend on the processing

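Of 150 values of the 10 genes under the alternatives, 132 kept their direction and their side of the threshold, 12 lost the call, 1 gained it and 5 changed sign. TGFB2, TGFBR1, TGFBR2 and SMAD3 kept both in every alternative run, with log2 fold changes of -0.91 to -0.77, -0.47 to -0.36, 0.48 to 0.56 and 0.42 to 0.50. TGFB1, not called, was at 0.00 with median-of-ratios and 0.02 with upper-quartile scaling and ran from -0.08 to 0.04 when single samples were left out. INHBA ran from -0.22 to -0.01, SMAD7 from -0.17 to -0.01, and INHBA was called only without DMSO replicate 2 (-0.22). LTBP1 was -0.66 (adjusted p = 0.065 by limma) with no filter and -0.67 (adjusted p = 0.059) with DESeq2, and -0.75 to -0.55 with single samples left out. THBS1 was -0.20 without the variance trend (adjusted p = 0.22 by limma) and with DESeq2 (adjusted p = 0.22), -0.17 with upper-quartile scaling (adjusted p = 0.056 by limma), and -0.29 to -0.09 with single samples left out. SKIL ran from -0.23 to -0.15. The number of the 10 genes called lower was 5 and became 3 with DESeq2, 2 without pladienolide B replicate 2 and 3 without pladienolide B replicate 3, a range of 2 to 5. The ratio of SKIL to SMAD7 differed by -0.19 to 0.02 and was 0.02 without pladienolide B replicate 2. SMAD2 was 0.01 with upper-quartile scaling and ran from -0.03 to 0.01 when single samples were left out. Of 375 values of the named pathway genes, 17 lost the call, all of them of ACVR1B, SMAD4, FKBP1A, PPM1A or INHBE. The cause of these changes was not tested. With the replicate number as a block, 7349 genes were called in place of 7695, the 10 genes kept their calls, and deviations of same-numbered samples correlated at -0.018, -0.017 and 0.003, so the numbers were not taken to pair samples. Over all genes the calls ran from 6381 (no variance trend) to 7855 (without DMSO replicate 2).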
